A study of Mus musculus with 2 samples.

Results

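The immediate early and heat shock genes of the embryonic mouse lung were examined as 10 named genes among the 43346 mouse genes of the gene tables. They comprise 7 immediate early genes (Fos, Fosb, Jun, Junb, Egr1, Atf3 and Ier2) and 3 heat shock genes (Hspa1a, Hspa1b and Hspa8). Members were chosen by symbol, matched through the gene identifier without its version, and all 10 were found in both libraries. The samples were whole lung of B6NCrl embryos at embryonic day 14.5, without any treatment named in the labels, sequenced as 1 group of 2 libraries called biological replicates 1 and 2. Each library was made from 10.0 ng of total RNA with a size minimum of 200 nt. Collection fell on day 15 of July for replicate 1 and on day 17 for replicate 2, so day and replicate cannot be told apart. Differences below are therefore between 2 libraries of 1 labelled group and not between conditions. The sources used here do not say how long the tissue stood before RNA was extracted.

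Immediate early genes are transcribed within minutes of a growth factor, a stress or handling of the tissue, without new protein synthesis, and their short-lived RNAs encode mostly transcription factors. FOS and JUN proteins pair into the AP-1 factor, EGR1 is a zinc finger factor induced through serum response factor, and ATF3 is a stress-induced factor of the ATF/CREB group. Heat shock proteins of the HSP70 family hold and refold unfolded proteins. HSPA8 is the constitutive cytosolic HSP70, present in nearly all cells, whereas HSPA1A and HSPA1B are the classical inducible forms, switched on by heat shock factor 1.

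Summed expected counts, which are estimated reads per gene, were 33601136 (replicate 1) and 34535168 (replicate 2), with 31940637 and 33167255 assigned to mouse genes. Spike-in RNA took 4.94% and 3.96% of the counts. All 8 markers of distal and pan-lung epithelium were detected, summing to 3140 TPM in replicate 1 and to 3204 TPM in replicate 2, and all 7 mesenchymal markers summed to 2500 and 2556 TPM (TPM is a length-corrected abundance scaled to the same total in each library). The 12 heart muscle markers, 8 of them detected, summed to 666 TPM in replicate 1, against 129 TPM in replicate 2, a ratio of 5.18, and none was at 0 in both libraries. Macrophage markers summed to 109 and 93.4 TPM, and neutrophil and basophil markers to 51.4 and 9.09 TPM, with 2 of 8 detected. The labels call each sample both pooled male and female and a single lung of pup 1. Uty, Kdm5d, Eif2s3y and Ddx3y, which lie on the Y chromosome, together had 7072 counts in replicate 1, against 4 in replicate 2, and Xist had 18.5 and 27580, which goes against a mixed pool in either library. The level of sex-linked RNA, the day and the replicate cannot be told apart in any difference below. In bulk tissue, fewer cells of a type and less RNA per cell cannot be told apart.

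The promoters of the paired inducible HSP70 genes are shown with those of Fos and Jun, because the first 2 are nearly the same sequence and all 4 belong to genes whose levels differed widely here. RefSeq entries (build GRCm38.p6) were present for 7 of the 10 genes. Each printed window holds the 250 bases before the start of the gene, written on the gene's own strand. Capitals mark the letters GAANNTTC, which are a pair of inverted heat shock units, the CCAAT box (or, read from the other strand, ATTGG), the letters TGACG that begin a cyclic AMP response element, and the TATAAA of a TATA box. The windows are Hspa1a at chr17:34972157-34972406 on the minus strand, Hspa1b at chr17:34959239-34959488 on the minus strand, Fos at chr12:85473640-85473889 on the plus strand and Jun at chr4:95052223-95052472 on the minus strand.
Hspa1a: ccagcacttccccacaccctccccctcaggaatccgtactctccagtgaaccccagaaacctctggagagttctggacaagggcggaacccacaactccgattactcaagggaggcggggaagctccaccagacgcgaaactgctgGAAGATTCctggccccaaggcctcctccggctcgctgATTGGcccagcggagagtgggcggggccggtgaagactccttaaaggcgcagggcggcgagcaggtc
Hspa1b: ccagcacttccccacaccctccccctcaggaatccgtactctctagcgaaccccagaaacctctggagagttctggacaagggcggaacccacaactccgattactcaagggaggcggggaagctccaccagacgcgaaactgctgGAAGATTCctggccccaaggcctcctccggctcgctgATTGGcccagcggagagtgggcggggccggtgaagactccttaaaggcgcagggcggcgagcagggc
Fos: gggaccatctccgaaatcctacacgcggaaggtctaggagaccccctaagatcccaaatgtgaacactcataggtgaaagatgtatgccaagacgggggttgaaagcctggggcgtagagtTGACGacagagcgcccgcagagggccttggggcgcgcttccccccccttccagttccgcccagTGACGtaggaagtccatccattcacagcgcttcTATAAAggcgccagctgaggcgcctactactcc
Jun: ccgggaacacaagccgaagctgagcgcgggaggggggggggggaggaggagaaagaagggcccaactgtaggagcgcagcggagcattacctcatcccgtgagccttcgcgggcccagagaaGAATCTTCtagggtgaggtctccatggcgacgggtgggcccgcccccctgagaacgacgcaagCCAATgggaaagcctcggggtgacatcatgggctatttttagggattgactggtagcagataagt

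The Hspa1a and Hspa1b windows differed at 3 of 250 positions, which are C44T, T47C and T249G, with the Hspa1a base first and positions counted from 1 at the 5′ end of the window. Both windows hold GAANNTTC beginning 104 bases before the start and a CCAAT box in reverse at 67 bases. In Jun the letters GAANNTTC begin at 128 bases and CCAAT at 65 bases before the start. The Fos window holds TATAAA at 33 bases and TGACG at 129 and 66 bases. Searched on both strands, GAANNTTC or TTCNNGAA occurred in 12.8% of 32851 RefSeq promoter windows of the same length, CCAAT in 33.8%, TGACG in 17.8% and TATAAA in 12.4%. In the windows that are not printed, positions are counted from the RefSeq start, which differs from the gene boundary used here. It lies a few bases inside the Fosb gene, a short way outside the Junb gene, and near the start of Atf3-201, far inside the Atf3 locus. Junb holds TGACG at 106 bases and CCAAT at 36 bases, and Fosb holds TGACG at 60 bases. At 10 bases Atf3 holds, on the other strand, TGACGTAA with a TGACG inside it. TGACGTAA and TGACGTCA were searched together as the cyclic AMP response element, and 1.98% of windows held either form. No member window held the 3-unit heat shock element (0.466% of windows), the CArG box of serum response factor (1.47%) or an AP-1 site (TGACTCA or TGAGTCA, 4.46%). Only exact matches within the 250 bases were sought, so an element with a mismatch or further upstream would be missed. Egr1, Ier2 and Hspa8 had no window. These matches describe letters and are not evidence of binding.

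The levels of the 10 genes covered a very wide range, from Hspa8 among the most abundant messages of the lung to Fosb at 1 count in each library. Of the 7 immediate early genes 6 were detected, meaning TPM of 1 or more in both libraries, and of the 3 heat shock genes 2 were. For comparison, 58.9% of 21474 protein-coding genes were detected by the same measure, and their median level was 4.10 TPM. By mean TPM the order was Hspa8, Ier2, Jun, Junb, Egr1, Atf3, Fos, Hspa1a, Hspa1b and Fosb. The libraries of neighbouring genes overlapped in 2 places, between Junb and Egr1 and between Atf3 and Fos, so those pairs cannot be ordered. For every other pair of neighbours, both libraries of the higher gene lay above both of the lower.

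**Figure D1:**
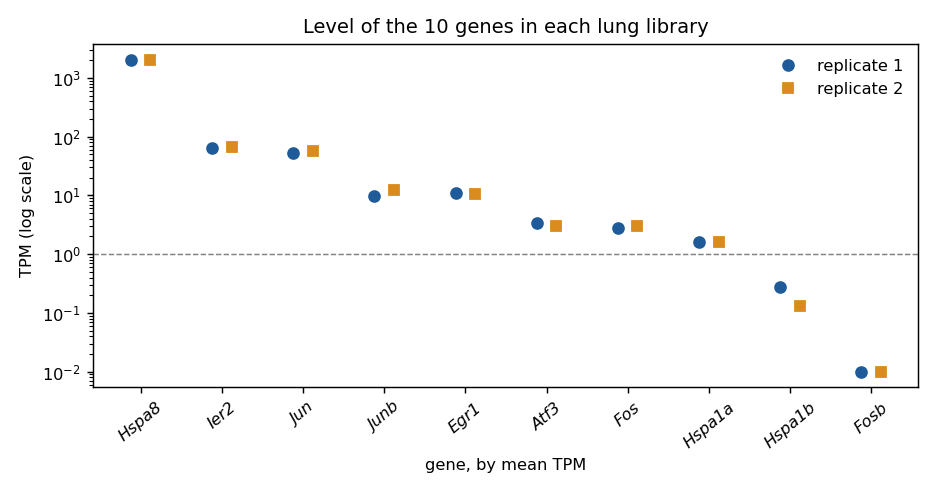
TPM of the 10 genes on a log axis, ordered by mean, with replicate 1 as a blue circle left of replicate 2 as an orange square and a dashed line at the detection limit of 1 TPM. Hspa8 lies far above the others, Hspa1b and Fosb lie below the line, and for most genes the 2 libraries nearly coincide.

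Ier2 and Jun were the highest immediate early genes. Ier2, which encodes a small nuclear protein of the immediate early response (ENSMUSG00000053560.4, chromosome 8 from 84661331 to 84662852, minus strand), had 64.1 TPM in replicate 1, against 67.6 TPM in replicate 2. Its mean of 65.8 ± 2.47 TPM (SD, n = 2, as for all means below) ranked 2355 of the protein-coding genes. Jun, the AP-1 subunit that can pair with itself or with FOS (ENSMUSG00000052684.4, chromosome 4 from 95049034 to 95052222, minus strand), had 52.7 TPM in replicate 1, against 57.7 TPM in replicate 2. Its mean was 55.2 ± 3.53 TPM, at rank 2848, from 3629 and 3989 counts. Both genes were a little lower in replicate 1, and both have a single measured transcript.

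Junb and Egr1 stood at a middle level. Junb, a JUN protein that often restrains Jun activity (ENSMUSG00000052837.5, chromosome 8 from 84974484 to 84978718, minus strand), had 9.89 TPM in replicate 1, against 12.2 TPM in replicate 2, from 384 and 475 counts. Egr1 (ENSMUSG00000038418.7) had 11.0 TPM in replicate 1, against 10.7 TPM in replicate 2, from 750 and 736 counts. The means were 11.0 ± 1.63 TPM for Junb and 10.9 ± 0.163 TPM for Egr1, at ranks 8422 and 8470, so the spread between libraries was wider for Junb than for Egr1. Of the 2 Egr1 transcripts, Egr1-202 carried 91.0% of the gene's TPM in replicate 1 and 91.4% in replicate 2.

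Atf3 and Fos lay below the median protein-coding gene. Atf3 (ENSMUSG00000026628.9, chromosome 1 from 191170296 to 191218039, minus strand) had 3.43 TPM in replicate 1, against 2.99 TPM in replicate 2, from 133 and 126 counts. Fos, the founding FOS subunit of AP-1 (ENSMUSG00000021250.9, chromosome 12 from 85473890 to 85477273, plus strand), had 2.84 TPM in replicate 1, against 3.05 TPM in replicate 2, from 114 and 137 counts. Their means of 3.21 ± 0.311 and 2.95 ± 0.148 TPM ranked 11153 and 11305. The protein-coding genes next to Fos in mean level were Ttc38 and Stra6, level with it to the precision of the tables, and BC034090 and Psd just below it. The transcript Fos-201 carried 85.7% of the gene's TPM in replicate 1 and 100% in replicate 2, and Atf3-201 carried 89.9% and 100%. By the deposited posterior means these shares were 72.1% and 84.1% for Fos-201 and 68.1% and 74.7% for Atf3-201, so the split between transcripts rests on few reads.

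Fosb, the FOS member best known from long-lasting activation in neurons (ENSMUSG00000003545.2, chromosome 7 from 19302696 to 19310051, minus strand), had 1 count in each library, listed as 0.01 TPM. This is under the 3 counts that a count of 0 allows, which are 0.0939 CPM in replicate 1 and 0.0905 CPM in replicate 2 (CPM scales mouse gene counts to a common total). Fosb was therefore not detectable at this depth, and no ratio is given. Read on the same strand, no 100-nt stretch of any transcript of the 7 immediate early genes occurs in a transcript of another gene. Sequence shared with a transcript of the opposite strand was not covered by this search.

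Jun and Egr1 each made up the largest share of their family, while Fos and Fosl2 shared theirs almost evenly. The JUN family summed to 88.9 TPM in replicate 1, against 97.8 TPM in replicate 2, and Jun made up 59.1 ± 0.220%, Jund 29.1 ± 0.725% and Junb 11.8 ± 0.944%. The FOS family summed to only 5.75 and 6.17 TPM, with Fos at 49.4 ± 0.0293%, Fosl2 at 45.7 ± 0.213%, Fosl1 at 4.70 ± 0.234% and Fosb at 0.168%. These SDs leave out counting error, and Fos had only 114 and 137 counts. The deposited TPM interval of Fos was 2.42 to 4.04 in replicate 1 and 2.76 to 4.15 in replicate 2. It includes the Fosl2 levels of 2.62 and 2.83 TPM, so Fos and Fosl2 cannot be ordered. Summed TPM of the JUN family was 15.5 times that of the FOS family in replicate 1 and 15.8 times in replicate 2, and Jun stood 18.5 and 18.9 times above Fos. On the deposited TPM, the ratio of JUN to FOS messages was thus nearly the same in both libraries. In replicate 1, however, 0.41 of the 2.84 TPM of Fos came from the transcript Fos-202, on 4.81 counts. The closeness of the ratios therefore depends partly on few reads. In the EGR family Egr1 made up 94.4 ± 2.05% of 11.4 and 11.6 TPM, while Egr2 and Egr3 stayed under 1 TPM and Egr4 was listed at 0.

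**Figure D2:**
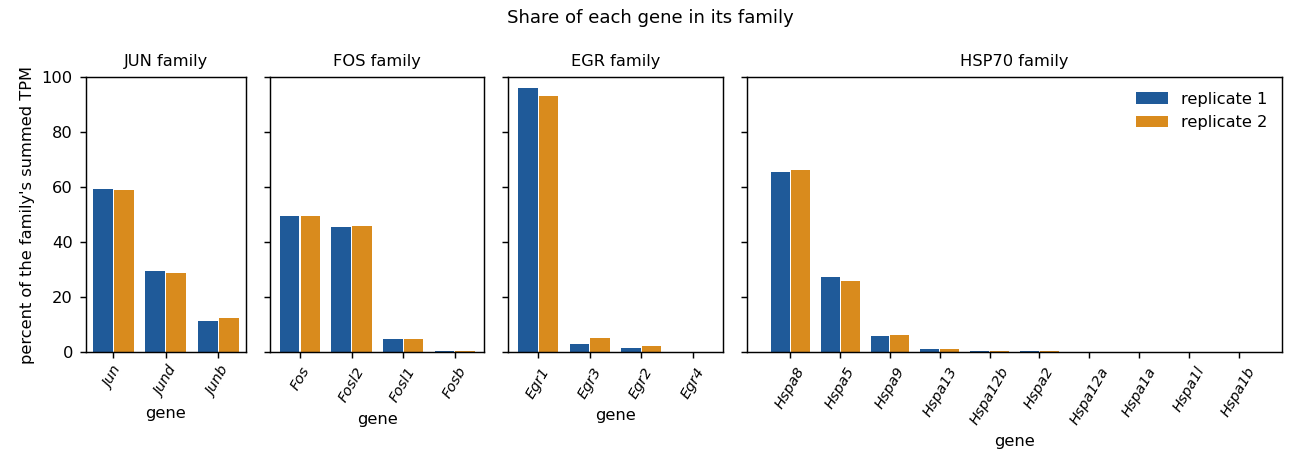
Percent of a family's summed TPM carried by each gene, for the JUN, FOS, EGR and HSP70 families, with replicate 1 in blue left of replicate 2 in orange. Jun, Egr1 and Hspa8 each carry most of their family in both libraries, and Fos and Fosl2 share the FOS family almost evenly.

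Hspa8 was far the highest of the 10 genes. Hspa8 (ENSMUSG00000015656.12, chromosome 9 from 40800984 to 40810087, plus strand) had 2049.9 TPM in replicate 1, against 2017 TPM in replicate 2, from 72810 and 70114 counts. Its mean of 2034 ± 22.9 TPM ranked 26 of the protein-coding genes, next to the surfactant gene Sftpc and the histone variant gene H2afz above it and the ribosomal gene Rpl32 and the histone variant gene H3f3a below it. It took 0.228% of all mouse gene counts in replicate 1, against 0.211% in replicate 2, against 0.0221% and 0.0230% for the 7 immediate early genes together. Its mean TPM was 30.9 times that of Ier2, the next gene in order.

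Part of the level assigned to Hspa8 came from transcripts that encode no full protein. Of 9 measured Hspa8 transcripts, the coding Hspa8-202 carried 56.0% of the TPM in replicate 1 and 52.8% in replicate 2, and the coding Hspa8-201 17.7% in each. Hspa8-204, a short retained-intron entry of 456 nt with 97 nt outside the exons of those 2, carried 21.5% and 20.9% of the TPM but 4.81% of the counts in each library. All protein-coding transcripts together had 1511 TPM in replicate 1, against 1422 TPM in replicate 2, and 93.0% and 91.4% of the counts. Hspa8-209, a processed transcript of 727 nt that lies wholly within those exons, had 1285 counts in replicate 1, against 2356 in replicate 2 (posterior SDs 174 and 185). Its share of TPM was accordingly 4.47% in replicate 1 and 8.31% in replicate 2, a difference of several posterior SDs in counts.

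Reads of Hspa8 can also fit other loci. Of the 100-nt windows of Hspa8-202, 73.2% occur in transcripts of 7 other genes, of which the 5 present in the tables are annotated as processed pseudogenes. Those 5 together had 1081 counts in replicate 1, against 953 in replicate 2, which is 1.48% and 1.36% of the Hspa8 count. Most of that was Gm8355, at 957 and 870 counts with posterior SDs of 98.2 and 95.7. Moving every one of these reads to Hspa8 would thus change its count by no more than these percentages. Reads that arose from any of the 7 genes, of which Gm6210 and Gm7232 were not measured, could instead have been counted as Hspa8. The percentages do not bound those reads. The small nucleolar RNA genes Snord14c, Snord14d and Snord14e, which lie in Hspa8 introns, are under 100 nt long and had 0 counts.

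The inducible HSP70 genes were near the detection limit. Hspa1a (ENSMUSG00000091971.3, chromosome 17 from 34969190 to 34972156, minus strand) had 1.61 TPM in replicate 1, against 1.63 TPM in replicate 2, from 103 and 105 counts, at rank 12219. Hspa1b (ENSMUSG00000090877.3, chromosome 17 from 34956436 to 34959238, minus strand) had 0.28 TPM in replicate 1, against 0.13 TPM in replicate 2, from 16.8 and 7.76 counts with posterior SDs of 3.45 and 3.62. Together the pair had 1.89 and 1.76 TPM, and Hspa8 stood 1085 and 1146 times above it. The constitutive form thus exceeded the inducible pair by 3 orders of magnitude in both libraries.

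The split between Hspa1a and Hspa1b rests on a part of each message. Their coding sequences, of 1923 and 1926 nt, are 99.6% identical over the aligned bases with 8 mismatches and a gap of 3 nt. Of the coding 100-nt windows of Hspa1a, 68.3% also occur in Hspa1b, whereas none of its 3′ UTR windows do. Hspa1a took 85.2% of the pair's TPM in replicate 1 and 92.6% in replicate 2. For the pair summed, the log2 ratio of replicate 1 over replicate 2 was 0.15 (95% interval -0.23 to 0.54), while Hspa1b alone gave 1.10 (-0.14 to 2.57). Both intervals include 0, so no difference between the libraries was detectable at this depth.

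In the HSP70 family of 10 genes, which summed to 3125 TPM in replicate 1, against 3043 TPM in replicate 2, Hspa8 carried 65.9 ± 0.494%. Hspa5, which encodes the chaperone BiP of the endoplasmic reticulum, carried 26.5 ± 0.912% and Hspa9, the mitochondrial HSP70, 6.08 ± 0.316%. Hspa1a carried 0.0525% and Hspa1b 0.00662%. The mainly testis-expressed relative Hspa1l, which lies beside them, had 0.9 and 0.7 TPM, and some of its sequence is shared with both.

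Between the libraries none of the 8 members tested differed by 2-fold or more at an adjusted p under 0.05 (exact two-sided binomial test of the counts, Benjamini-Hochberg over 14870 genes with mean TPM of 1 or more). Of all genes tested 1.14% were called in this way, so 0 of 8 is close to that background. At an adjusted p under 0.05 without a size limit, 1 of the 8 passed, Hspa8, against 22.5% of all genes tested. At an unadjusted p under 0.05 there were 3 of 8, against 33.1% of all genes tested. The exact test of edgeR, run at the common dispersion, gave 0 both adjusted and unadjusted. That dispersion was estimated from these same 2 libraries taken as replicates, so its 0 cannot decide whether a member differed. The binomial test covers counting error only. The labels number the libraries as biological replicates, and any p compares these 2 alone.

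Each of the 8 members tested lay within the central spread of all genes tested. The log2 ratio of replicate 1 over replicate 2 ran from -0.24 for Junb to 0.14 for Atf3, and its median over the 8 members was 0.0077. Over all genes tested the median was 0.0016, with 95% of genes between -0.59 and 0.70. Hspa8 had a log2 ratio of 0.12 (95% interval 0.10 to 0.13; adjusted p 2.01e-50, exact binomial test), a 1.08-fold difference which its many counts make visible. On the deposited TPM, which is scaled over all features with the spike-ins included, that ratio was 0.023. Under the same change the single-transcript gene Jun gave -0.13, against -0.074 by scaled counts. By edgeR's exact test the unadjusted p of Hspa8 was 0.551.

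Of the 6 immediate early genes tested, 4 had lower scaled counts in replicate 1, with a median log2 ratio of -0.047. Junb had a log2 ratio of -0.24 (-0.44 to -0.047; adjusted p 0.0586) and Jun -0.074 (-0.14 to -0.0087; adjusted p 0.0916), both by the exact binomial test. Fos had -0.20 (-0.57 to 0.17) and Ier2 -0.0195 (-0.11 to 0.069). Egr1 at 0.090 (-0.059 to 0.24) and Atf3 at 0.14 (-0.22 to 0.50) went the other way, as did Hspa1a at 0.035 (-0.37 to 0.44). None of these passed the test, and the interval of each stays inside a 1.5-fold difference. Scaling by the spike-ins moved the median of all genes to -0.34 and that of the members to -0.33, and with it Egr1, Atf3, Hspa1a and Hspa8 came out below 0, so directions are relative to the median gene.

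**Figure D3:**
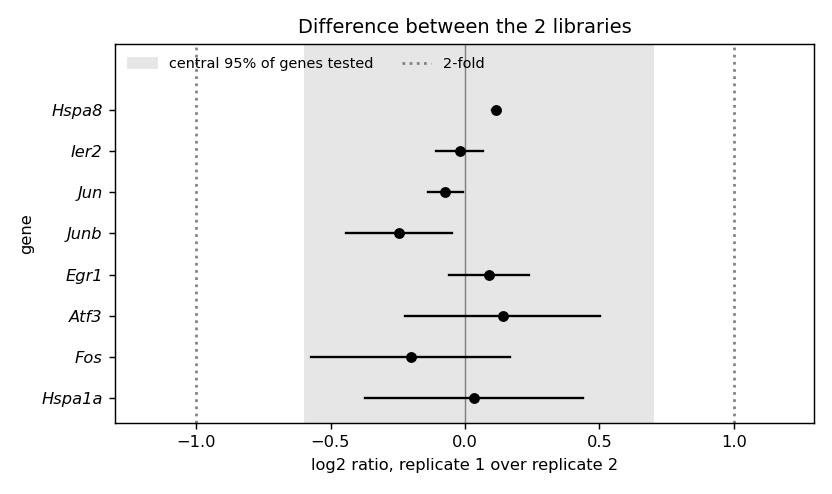
Log2 ratio of replicate 1 over replicate 2 for the 8 members tested, as points with 95% counting intervals, over a grey band that holds 95% of the 14870 genes tested and dotted lines at 2-fold. All 8 points lie within the band, from -0.24 for Junb to 0.14 for Atf3.

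Genes that overlap the members on the other strand could share reads with them, since the sources used here do not say whether counting used strand. Junos, an antisense RNA over 232 nt of Jun, had 20.7 counts in replicate 1, against 29.3 in replicate 2. Jun had fractional counts, 3629.26 and 3988.68, with posterior SDs of 1.89 and 2.24, so a few reads were not assigned wholly to it. Whether Junos took them was not tested. Gm20481, which covers 564 nt of Hspa1a from the other strand, had 11.2 and 0 counts. The Junos counts are small beside those of Jun, while the Gm20481 count in replicate 1 is not small beside the 103 of Hspa1a. Prdx2, a highly expressed peroxiredoxin gene with 633 and 672 TPM, overlaps the Junb locus but has no exonic base in common with the measured Junb transcript.

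No further immediate early gene was called between the libraries. Of 24 other AP-1 and immediate early factors 17 were detected and tested, and none was called. The highest were Atf4, the factor of the integrated stress response, at 106 TPM in replicate 1 and 92.3 TPM in replicate 2, Myc at 75.5 and 80.5 TPM, Atf2 at 53.5 and 58.9 TPM, and Klf10, a TGF-beta early response gene, at 32.2 and 28.5 TPM. The median log2 ratio of the 17 was -0.018, and 3 of them passed the adjusted p of the exact binomial test without the size limit. Of 38 immediate early signalling and RNA decay genes 32 were detected and tested, none was called, and the median log2 ratio was 0.0070 with a range from -0.31 to 0.52. Without the size limit 12 of the 32 passed, against 22.5% of all genes tested and 0 of the 6 immediate early members tested. A gene with many counts passes at a small difference, as Zfp36l1 did at a log2 ratio of 0.07. The lists were not matched for counts, and this difference between lists was not tested. Plk2, a stress-responsive polo-like kinase gene, led with 203 and 206 TPM, followed by the RNA decay factor gene Zfp36l1 at 147 and 152 TPM, Phlda1 at 107 and 112 TPM and Rgs2, a brake on G protein signalling, at 76.7 and 71.3 TPM. Several of these genes exceeded every immediate early member in TPM.

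All 14 regulators upstream of these genes (serum response factor, its ternary complex and MRTF partners, and the CREB group) were detected and none was called. The highest were Atf1 at 41.7 TPM in replicate 1 and 45.9 TPM in replicate 2, Creb1 at 37.5 and 40.8 TPM, Elk3, a ternary complex factor, at 34.0 and 35.6 TPM, and the coactivator gene Crebbp at 30.3 and 30.9 TPM. The list's levels ran from 6.23 to 43.8 TPM, a much narrower range than that of the 10 members.

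**Figure D4:**
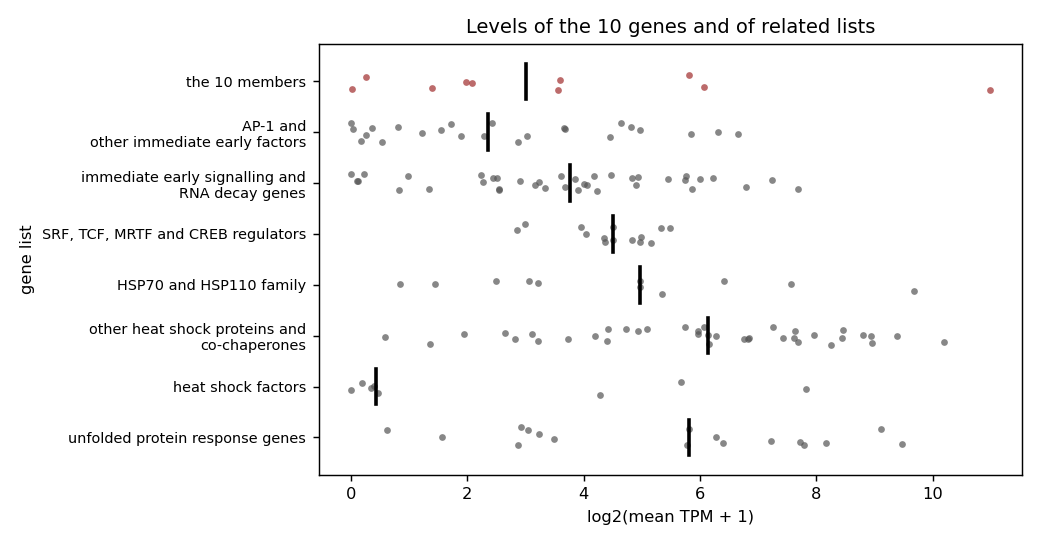
Mean level of each gene as log2(TPM + 1), for the 10 members in red and 7 related lists in grey, with a black bar at each list's median. Heat shock and co-chaperone genes and unfolded protein response genes lie mostly higher, and most heat shock factor genes lie near 0.

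Heat shock genes beyond the members were mostly abundant. Of the 11 other HSP70 and HSP110 genes matched, 10 were detected and tested and none was called. They were led by Hspa5 at 847 TPM in replicate 1 and 786 TPM in replicate 2 and Hspa9 at 183 and 192 TPM, followed by the nucleotide exchange factors Hspa4 at 80.9 and 86.9 TPM and Hsph1 at 40.1 and 39.2 TPM. Of 38 listed heat shock proteins and co-chaperones, which share a gene with the list just given, 36 were detected. The cytosolic HSP90 genes Hsp90ab1 and Hsp90aa1 led with 1135 and 627 TPM in replicate 1 and 1212 and 707 TPM in replicate 2, followed by the collagen chaperone gene Serpinh1 at 482 and 512 TPM and Hsp90b1, the HSP90 of the endoplasmic reticulum, at 505 and 477 TPM. In the list of heat shock factors, which also holds the binding protein genes Hsbp1 and Hsf2bp, 3 of 8 genes were detected. These were Hsbp1, a negative regulator of heat shock factor 1, at 220 and 233 TPM, Hsf1 at 45.8 and 54.6 TPM and Hsf2 at 18.5 and 18.2 TPM. Hsf2bp came next at 0.36 and 0.40 TPM. Hsf1, the main activator of the inducible HSP70 genes, was thus present at a far higher level than its targets Hspa1a and Hspa1b.

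Of the 37 genes tested in the list of heat shock proteins and co-chaperones, the shared gene included, 1 was called, which is near the background. It was Hspb7, a small heat shock gene of heart and skeletal muscle, with 2.5 TPM in replicate 1, against 0.65 TPM in replicate 2, from 149 and 39 counts. Its log2 ratio was 1.98, a 3.95-fold difference (adjusted p 1.78e-15, exact binomial test). Among the other small heat shock genes, which were named after their values were seen, the muscle-rich Cryab had 35.5 and 23.9 TPM with a log2 ratio of 0.63, Hspb2 3.63 and 2.11 TPM with 0.83, and Hspb8 8.72 and 6.56 TPM with 0.47. Hspb3, under the mean TPM filter and so not tested in the main setting, had 15 counts in replicate 1, against 0 in replicate 2. Against a floor of 3 counts in replicate 2, those 15 counts are 5.22-fold higher. This is not a lower bound, because the counting error of the 15 is left out. Hspb1 had 53.7 and 50.8 TPM and Hspb6 20.4 and 20.1 TPM. Summed TPM of the heart muscle markers was 5.18-fold higher in replicate 1, and that of the 7 skeletal muscle markers, 2 of them detected, 2.06-fold higher. The part of either in these differences was not tested. None of the 8 members tested differed by as much as 1.2-fold in scaled counts, and any part of muscle RNA in their ratios was not tested.

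**Figure D5:**
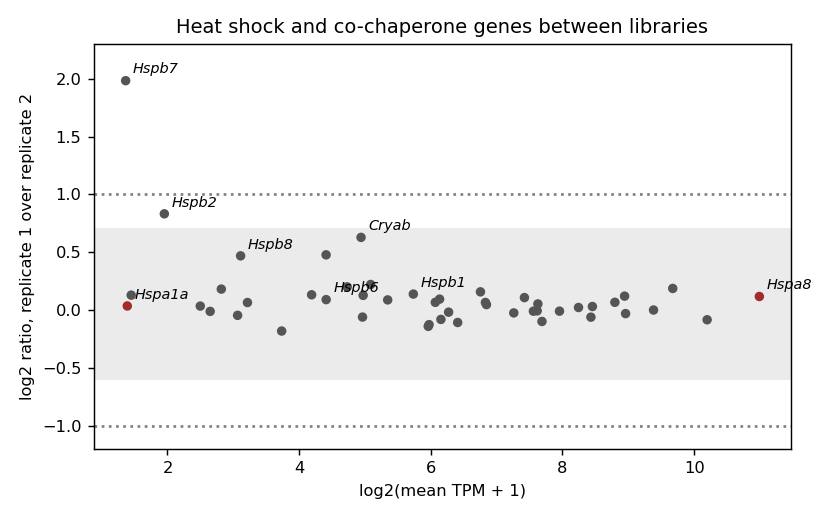
Log2 ratio of replicate 1 over replicate 2 against log2(mean TPM + 1) for 48 heat shock and co-chaperone genes with mean TPM of 1 or more, with Hspa1a and Hspa8 in red, a grey band that holds 95% of all genes tested and dotted lines at 2-fold. Hspb7 at 1.98 is the only point above the 2-fold line, Hspb2 at 0.83 lies just above the band, and Hspa8 at 0.12 lies near the centre.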

How the data were processed

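Per the file headers, the authors deposited for each library a gene and a transcript table with expected counts (estimated reads per feature), TPM, posterior mean TPM, posterior SDs of the count, and percent of a gene's TPM per transcript. Per the deposited read-me files, the build was mm10, the annotation GENCODE M4, and the source transcriptome alignments. The sources used here do not name the aligner, the quantification program or the use of strand. GENCODE M21, on the same build (GRCm38), gave symbols and coordinates, and RefSeq gave promoters.

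Expected counts were rounded, and library sizes were TMM-scaled (edgeR 4.0.16 under R 4.3.3) over 14870 mouse genes with mean TPM of 1 or more. Log2 ratios are replicate 1 over replicate 2 with 0.5 added to each count. With 1 group of 2 libraries, each gene was tested by an exact two-sided binomial test (SciPy 1.17.1) with Benjamini-Hochberg adjustment, and called at an adjusted p under 0.05 and a difference of at least 2-fold. Intervals are exact Clopper-Pearson at 95%. Intervals and floors cover counting error only, since no molecular identifiers are mentioned. Alternatives were other scalings (mouse gene total, DESeq2 1.42.0 size factors, spike-ins), filters, fold limits, edgeR's exact test, and posterior mean TPM. The common dispersion used by edgeR's test was estimated from the same 2 libraries taken as replicates. The effective length is the length minus 99 nt, hence the 100-nt windows of shared sequence.

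The members and lists were chosen with earlier results of these data known. Named beside the members were the 4 highest genes of each list, every called gene, and the genes next to Fos and Hspa8 in level. Outside that rule, the other genes of the JUN, FOS, EGR and HSP70 families, genes that overlap or share sequence with a member, and the small heat shock genes were named, the last after their values were seen. Of the symbols in the lists, 4 were matched by a newer name and Hspa14 was not matched. No set test was made.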

Additional observations from a re-analysis of the deposited data

How the results depend on the processing

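The number of members called stayed 0 under every scaling, filter and test tried and with a 1.5-fold limit, and became 1 (Hspa8) with no size limit. Because edgeR's dispersion came from these same 2 libraries, its 0 is not separate support. Of the 128 genes tested in the wider lists 1 was called, against 2 without a filter on low values (Hspb3 and Hspb7). The number was 3 with a 1.5-fold limit (Cryab, Hspb2 and Hspb7) and 46 with no size limit. Those 46 are 35.9% of the list genes, against 22.5% of all genes tested. Of the 46, 31 were higher in replicate 1, against 50.9% of all genes called at that setting. Neither difference was tested, and without a size limit a gene with many counts passes at a small difference. More genes pass a looser limit by its construction. Over all genes 169 were called, with 68.6% of them higher in replicate 1. Scaling by spike-ins gave 290 with 30.0% higher, no filter gave 538 of 24179, a 1.5-fold limit 398, no size limit 3347, and edgeR's exact test 106 with 79.2% higher. The number of members detected was 8, also without either replicate, 8 at a limit of 0.5 TPM and 7 at 2 TPM. With spike-in scaling the log2 ratios were -0.23 for Hspa8, -0.25 for Egr1, -0.20 for Atf3 and -0.31 for Hspa1a. Posterior mean TPM left all 10 members in the same order. The mean share of Fos-201 moved to 78.1%, against 92.9% as deposited, and that of Atf3-201 to 71.4%, against 94.95%, by the posterior mean. No paired analysis was possible because there is 1 group. The small counts of Fos, Atf3, Hspa1a, Hspa1b and Fosb, at most 137 in a library, limit what these libraries can show for those genes.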

Other observations

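Genes of the unfolded protein response, which raises chaperones of the endoplasmic reticulum, were also examined. Of 17 genes 16 were detected and tested, none was called, and the median log2 ratio of replicate 1 over replicate 2 was 0.080, against 0.0016 over all genes tested. The highest were Calr, a lectin chaperone gene, at 716 TPM in replicate 1 and 708 TPM in replicate 2, Pdia6 at 554 and 545 TPM, Pdia4 at 279 and 292 TPM, and Canx at 222 and 217 TPM.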
